A study of Mus musculus with 4 samples.

Results

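The cytochrome P450 genes read here are the rows of a gene table whose symbol is Cyp followed by a number, a letter and a number. Cyp26a1 and Cyp26b1 were left out, and Cyp51 has no letter and falls outside the pattern. The rule found 89 of the 23242 rows of the table, spread over 16 families. It uses names only and no measured value, but the set was chosen with earlier results of these data known.

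P450 enzymes are haem-containing monooxygenases that insert an oxygen atom into small lipophilic molecules, with electrons passed on by a reductase. The family number groups them by protein sequence. CYP1 to CYP3 enzymes mostly clear drugs and other foreign compounds, CYP4 enzymes mostly hydroxylate fatty acids and eicosanoids, and the higher numbers mostly make or break down steroids, bile acids, vitamin D and retinoic acid. In the prostate some of them are known for activating carcinogens and for handling steroids near their receptors.

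RNA was sequenced from prostate lobes, ventral and dorsal, of mice of the FVB strain. The homozygotes were 2 mice (26 and 29) with a TMPRSS2:ERG transgene on both chromosomes, and the wild types were 2 FVB mice (27 and 28) without it. The transgene came from a bacterial artificial chromosome (BAC) holding the TMPRSS2 locus. A loxP-flanked GFP had been placed in it ahead of exons 4 to 11 of human ERG, which encodes a transcription factor of the ETS family. Cre protein then removed the GFP, and 1 sub-line was bred to homozygosity, so all homozygotes descend from 1 insertion line. The labels give no age. Both lobes are whole tissue, in which fewer cells of a type and less RNA per cell cannot be told apart.

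Expression was given as FPKM, fragments per kilobase of transcript scaled to library size, which allows levels to be compared between genes. Each library had between 11541 and 11854 rows at 1 FPKM or more. Depth was estimated from genes with 1 annotated transcript, as the most frequent depth at which their FPKM would equal 1 fragment. That gave 45.3 to 52.0 × 1e6 fragments, so that 1 FPKM of a 2 kb transcript would rest on about 90.5 to 104 fragments. The estimate is rough, since the fullest bin held 59 to 68 of 1928 to 2039 genes per library. Mouse Erg was at 0.892 and 1.17 FPKM in homozygotes, against 0.980 and 0.953 FPKM in wild types, and it does not check the labels because the transgene carries human exons. Among markers of the labelled tissue, Pbsn was between 9756 and 14559 FPKM and Krt8 between 168 and 209 FPKM in the 4 libraries. Markers of seminal vesicle, a neighbouring gland, were highest in wild-type mouse 27: the 7 listed genes summed to 4401 and 8543 FPKM in homozygotes, against 37386 FPKM in wild-type mouse 27 and 11335 FPKM in wild-type mouse 28. Most of the sum outside mouse 27 was Pate4, at 4371 and 8509 FPKM in homozygotes, against 14624 and 10196 FPKM in wild types. The highest of the others, Svs6, was at 12.5 and 16.6 FPKM in homozygotes, against 11130.5 and 468 FPKM in wild-type mice 27 and 28. The p-values below measure the spread between these mice only, with n = 2 per genotype.

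At a level of 1 FPKM or more, 20 of the 89 P450 genes were expressed in both homozygotes and 20 in both wild types. Over all rows of the table these shares were 49.4% and 49.0%. The genes were nearly the same in both genotypes: 19 reached 1 FPKM in all 4 libraries and 24 in at least 1. Cyp11a1 reached it in both homozygotes and in neither wild type, and Cyp4f15 in both wild types but in only 1 homozygote. Another 25 genes were listed at 0 in every library and 40 had values that all lay under 1 FPKM.

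**Figure D1:**
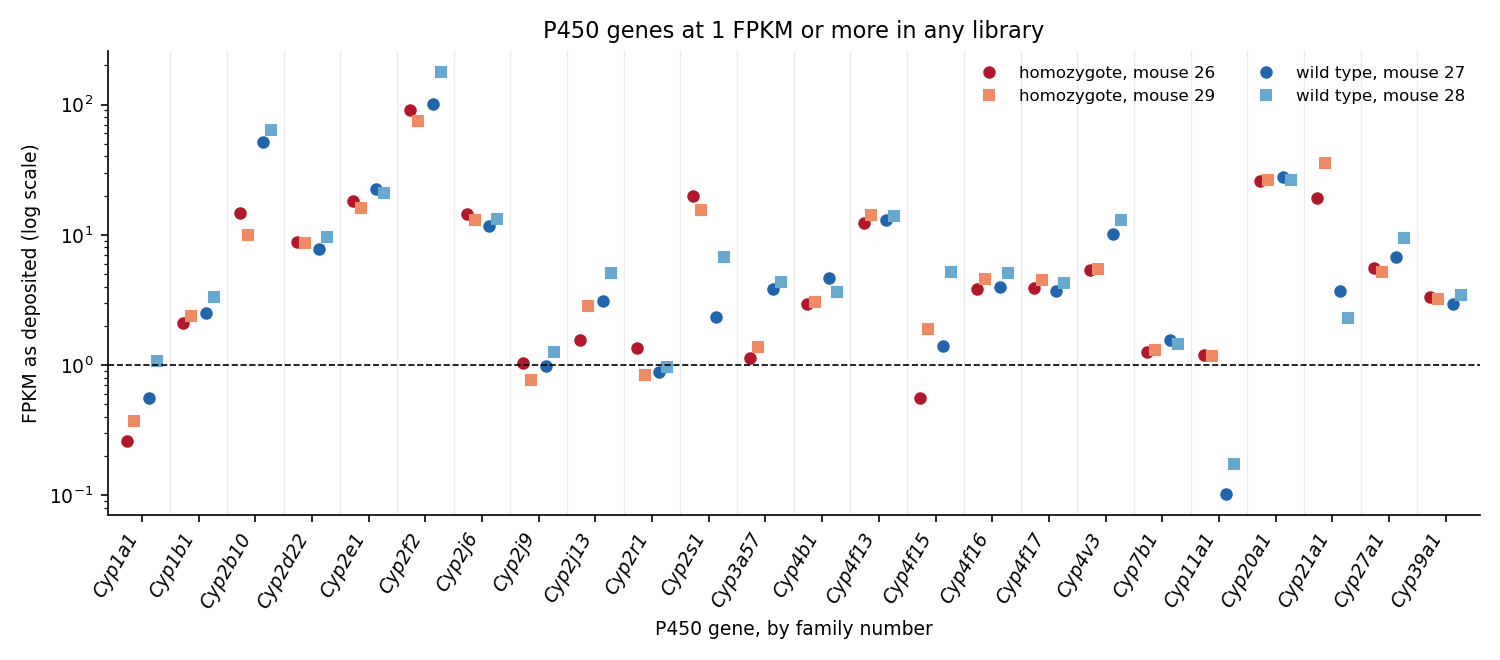
FPKM on a log axis for the 24 P450 genes at 1 FPKM or more in at least 1 library, by family number, with 1 point per library (homozygotes left of wild types) and a dashed line at 1 FPKM. Cyp2f2 had the highest level in each library, and the genotypes lie clearly apart for Cyp11a1, Cyp21a1, Cyp2b10, Cyp2s1, Cyp3a57 and Cyp4v3.

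CYP2 was the largest family, with 48 genes, of which 9 reached 1 FPKM in at least 1 library. CYP4 had 15 genes with 6 expressed, CYP3 had 7 with 1 expressed, and CYP1 had 3 with 2 expressed. CYP7 and CYP27 had 2 genes and 1 expressed gene each. CYP11, with 3 genes, had Cyp11a1 alone above the level. CYP20, CYP21 and CYP39 have 1 gene each and all were expressed. CYP8, CYP17, CYP19, CYP24, CYP26 and CYP46 have 1 gene each here, and none reached 1 FPKM.

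The summed FPKM of all 89 genes was 262 and 256 in homozygotes, against 292 and 403 in wild types. The single gene Cyp2f2, whose enzyme activates naphthalene in mouse airway cells, made up 34.4% and 29.2% of that sum in homozygotes and 34.7% and 44.3% in wild types. With Cyp2b10 added, the share was 40.0% and 33.1% in homozygotes, against 52.5% and 60.2% in wild types. The other 87 genes summed to 157 and 171 FPKM in homozygotes, against 139 and 160 FPKM in wild types, and overlapped between genotypes.

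Of the 89 genes, 22 averaged at least 1 scaled FPKM over the 4 libraries and were tested with limma on log2(scaled FPKM + 1). In homozygotes 2 were higher (Cyp21a1 and Cyp2s1), 3 were lower (Cyp2b10, Cyp3a57 and Cyp4v3) and 17 did not pass an adjusted p of 0.05. Over all 11762 genes tested, 7.65% were called, 4.65% higher and 3.0% lower. The median log2 fold change of the 22 genes was -0.19, against -0.003 for all tested genes. Of the 22, 18 lay below 0, against 5952 of the 11762 tested genes, and this difference was not tested. On scaled FPKM the genotypes did not overlap for 12 genes that were lower in homozygotes and for 2 that were higher, 14 in all, against 25.8%, 25.3% and 51.1% of all tested genes. On FPKM as deposited the lower ones were 10, since Cyp20a1 and Cyp2j9 then overlap. Through the filter, 20 genes passed by their level in both genotypes, Cyp2j9 by its wild-type level alone and Cyp2r1 by its homozygote level alone, and neither of those was called.

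The counts depended on single libraries. Without wild-type mouse 27 the number of genes lower in homozygotes was 7, with Cyp2f2, Cyp27a1, Cyp2j13 and Cyp4f15 added, and without wild-type mouse 28 it was 5, with Cyp2e1 and Cyp4b1 added. Without homozygote 26 or without homozygote 29, Cyp21a1 remained the only gene called higher. Without the filter on low values, when 23210 genes were tested, none of the 5 genes was called and Cyp11a1 was.

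**Figure D2:**
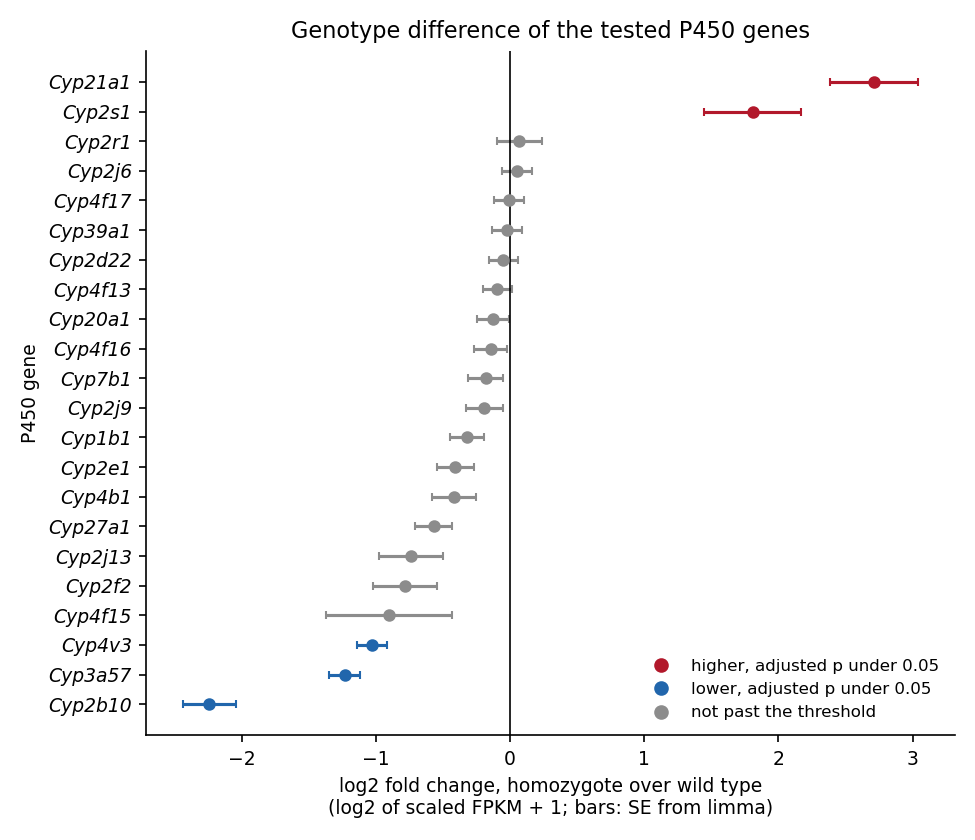
Log2 fold change of homozygote over wild type, on log2(scaled FPKM + 1), for the 22 tested P450 genes, with bars for the standard error from limma and colours for genes past the adjusted p threshold. Cyp21a1 at 2.71 and Cyp2s1 at 1.81 stand to the right, Cyp2b10 at -2.24, Cyp3a57 at -1.23 and Cyp4v3 at -1.03 to the left, and most of the others lie slightly below 0.

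The start regions of 4 of the 5 called genes are shown because the transgene product is an ETS factor and P450 genes are known targets of the Ah receptor (AHR) and of nuclear receptors. Each is the 250 bases before the annotated start, read 5′ to 3′ on the gene's strand from RefSeq on GRCm38.p6, the assembly behind mm10. Capitals mark matches on either strand to any of 4 motifs. The motif bound by ETS factors was searched as GGAAGT. For the response element of AHR the core letters GCGTG were used. The nuclear receptor half-site was read as AGGTCA. The TATA box, which lies close to the start of many tissue-restricted genes, was searched with the letters TATAAA. Matches to different motifs may overlap.
Cyp2s1, chr7:25816526-25816775, minus strand: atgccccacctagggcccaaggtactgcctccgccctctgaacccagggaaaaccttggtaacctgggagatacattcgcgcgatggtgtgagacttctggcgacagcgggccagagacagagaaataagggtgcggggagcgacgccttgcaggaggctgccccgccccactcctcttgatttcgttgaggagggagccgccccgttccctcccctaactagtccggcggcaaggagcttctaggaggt
Cyp2b10, chr7:25897408-25897657, plus strand: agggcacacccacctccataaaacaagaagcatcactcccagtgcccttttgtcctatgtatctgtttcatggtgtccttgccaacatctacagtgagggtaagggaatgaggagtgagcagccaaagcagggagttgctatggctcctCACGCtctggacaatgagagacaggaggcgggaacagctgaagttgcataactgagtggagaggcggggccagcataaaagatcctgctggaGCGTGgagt
Cyp3a57, chr5:145345019-145345268, plus strand: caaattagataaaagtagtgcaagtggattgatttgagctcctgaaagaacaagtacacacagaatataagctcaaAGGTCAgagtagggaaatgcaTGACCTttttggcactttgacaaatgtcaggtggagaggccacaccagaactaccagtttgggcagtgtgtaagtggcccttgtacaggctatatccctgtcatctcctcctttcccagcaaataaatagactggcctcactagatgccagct
Cyp4v3, chr8:45333164-45333413, minus strand: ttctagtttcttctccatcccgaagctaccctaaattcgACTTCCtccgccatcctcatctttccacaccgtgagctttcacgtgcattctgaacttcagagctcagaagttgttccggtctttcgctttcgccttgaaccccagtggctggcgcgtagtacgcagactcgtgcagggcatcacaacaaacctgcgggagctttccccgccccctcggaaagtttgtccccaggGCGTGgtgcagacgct

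In windows of 300 bases, which add the 50 bases after the start, the Cyp2s1 region held no match to any of the 4 motifs. It was rich in G and C (63.0%) with 17 CG pairs, against a median of 7 over all windows. The Cyp4v3 region also held 17 CG pairs, with an ETS match whose first base lies at -211 from the start and an AHR core match at -16. The Cyp3a57 region held 1 CG pair and a pair of nuclear receptor half-sites on opposite strands, at -174 and -153. The Cyp2b10 region held AHR core matches at -101 and -9. Of all 32817 windows, 23.8% held the ETS site, 32.4% the AHR core, 16.3% the half-site and 13.6% the TATA box. A match is only a run of letters and says nothing of binding.

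Windows were found for 68 of the 89 P450 genes, 78 in all. They held the ETS site in 18.0%, the AHR core in 20.5%, the half-site in 26.9% and the TATA box in 38.5%. The median number of CG pairs was 2 in these windows, against 7 over all windows, and the AHR core itself contains a CG pair. Genes at 1 FPKM or more in any library and genes under 1 FPKM in every library differed in content. Of the 19 genes with a window that reached 1 FPKM in any library, 10.5% held a TATA box and 47.4% an AHR core. Of the 49 that did not, 55.1% held a TATA box and 12.2% an AHR core. Neighbouring P450 genes are duplicates that share sequence, so these shares are descriptions and were not tested.

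Among the steroid-making genes, Cyp21a1 (Entrez 13079, chr17:34801348-34804426, minus strand, mm10) encodes steroid 21-hydroxylase, which in the adrenal cortex turns progesterone and its hydroxylated form into corticosteroid precursors. It was at 19.0 and 35.8 FPKM in homozygotes, against 3.72 and 2.29 FPKM in wild types. Both homozygotes lay far above both wild types, and the homozygotes differed from each other more than the wild types did. The means were 27.4 ± 11.9 FPKM in homozygotes and 3.01 ± 1.01 FPKM in wild types (SD, n = 2 each), a 9.10-fold ratio. On the log2 scale the difference was 2.71 (SE 0.33, limma adjusted p = 0.00917). The adjusted p ranged from 0.000276 to 0.186 over 12 alternatives and passed the threshold in all but the one without a filter.

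Sequence and neighbours of Cyp21a1 bear on how that value can be read. The pseudogene Cyp21a2-ps shares 21.3% of the 50-base stretches of Cyp21a1 transcripts, so fragments of the 2 loci could be assigned to either. The complement gene C4b, which lies near it, was at 4.93 and 3.74 FPKM in homozygotes, against 4.07 and 4.65 FPKM in wild types. Of the 11 rows within 100 kb, 10 were tested and none was called, with log2 fold changes between -0.37 (Tnxb) and 0.10 (Stk19).

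Cyp11a1, the mitochondrial enzyme that cuts the side chain of cholesterol to begin steroid synthesis, lay below the filter. It was at 1.19 and 1.17 FPKM in homozygotes, against 0.102 and 0.173 FPKM in wild types, so the homozygotes agreed closely and the genotypes did not overlap. Fitted without the filter, its log2 fold change was 0.92 (SE 0.0359, limma adjusted p = 0.0465), a fold that the pseudocount holds down. In that fit the pseudocount also keeps standard errors small near 0 FPKM, for example 0.00135 for Cyp2d13. The SE and adjusted p of a low gene are therefore uncertain there. For Cyp11a1 the authors' deposited table has a log2 fold of 2.94 (q-value 1.59e-06).

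Cyp17a1, whose enzyme hydroxylates and cleaves pregnenolone and progesterone on the way to androgens, was at 0.9201 and 0.684 FPKM in homozygotes, against 0.110 and 0.355 FPKM in wild types. Both homozygotes were above both wild types, and all values stayed under 1 FPKM. For Cyp17a1 the authors' deposited table has a log2 fold of 1.51 (q-value 0.0476), and the limma fit without the filter gave an adjusted p of 0.307. Cyp11b1 and Cyp11b2, which finish corticosterone and aldosterone, did not exceed 0.0255 FPKM in any library. Cyp19a1, the aromatase that makes oestrogens, was listed at 0 in all 4.

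Markers of other cells were read beside these genes. Of 6 markers of Leydig and adrenal cells, Nr5a1, Hsd3b1 and Insl3 were listed at 0 in every library, and the 6 summed to 0.942 and 1.02 FPKM in homozygotes, against 0.982 and 1.13 FPKM in wild types. Star, the cholesterol carrier of steroid-making cells, was at 0.792 and 0.934 FPKM in homozygotes, against 0.850 and 1.08 FPKM in wild types. Mast cell markers were higher in homozygotes, as were Cyp21a1, Cyp11a1 and Cyp17a1. In all 7 markers both homozygotes exceeded both wild types, as in 25.3% of all tested genes on scaled FPKM. Of the 6 tested, 5 were called, where 4.65% of all tested genes were called higher. Tpsab1, among those called, passed the filter by its homozygote level alone. The 7 markers summed to 301 and 242 FPKM in homozygotes, against 11.0 and 15.1 FPKM in wild types. Kit was the tested marker that was not called (log2 fold change 0.42, limma adjusted p = 0.170). Of the 7 markers, 1 was higher in homozygote 29 than in homozygote 26, and 6 in wild-type mouse 28 than in wild-type mouse 27. Within genotypes, Cyp11a1 and Cyp17a1 were higher in homozygote 26 and in wild-type mouse 28. Cyp21a1 was higher in homozygote 29 and in wild-type mouse 27. The part of mast cells in the higher P450 levels was not tested.

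**Figure D3:**
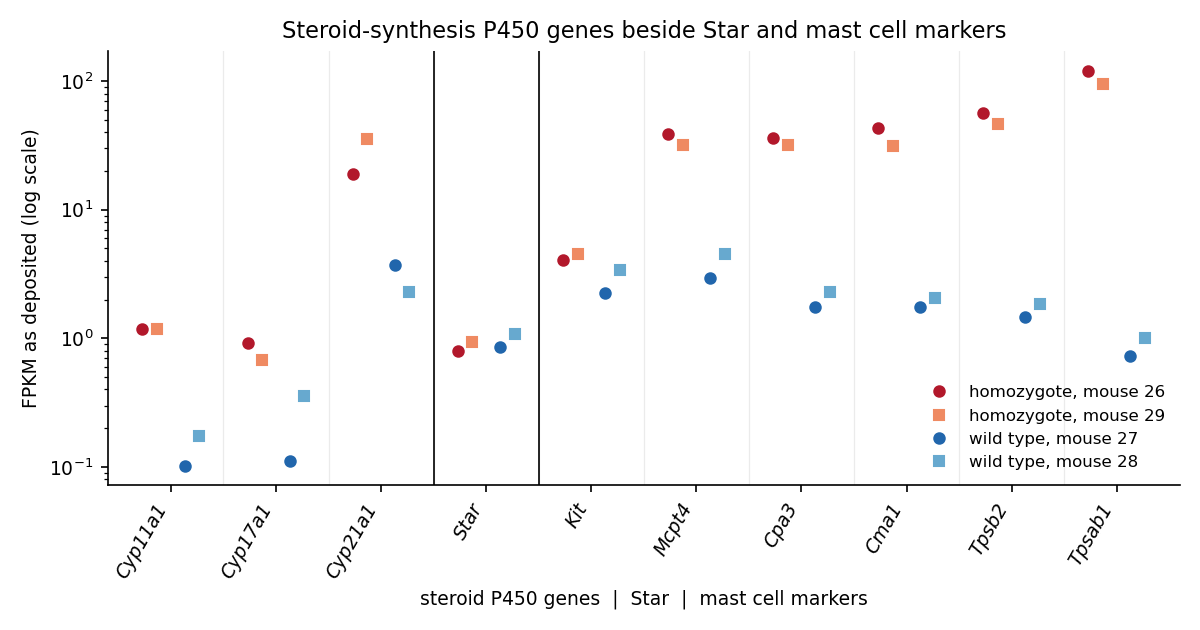
FPKM on a log axis in each library for the steroid-synthesis genes Cyp11a1, Cyp17a1 and Cyp21a1, for Star, and for 6 mast cell markers, homozygotes left of wild types. The steroid P450 genes and the mast cell markers are higher in both homozygotes, while Star lies between 0.792 and 1.08 FPKM in all 4 libraries.

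Cyp2s1 (Entrez 74134, chr7:25802476-25816530, minus strand) encodes an enzyme found mainly in epithelia outside the liver and known to be induced through AHR. It was at 19.8 and 15.6 FPKM in homozygotes, against 2.33 and 6.77 FPKM in wild types. Both homozygotes were above both wild types, and wild-type mouse 28 was well above wild-type mouse 27. The log2 fold change was 1.81 (SE 0.36, limma adjusted p = 0.0424), with means of 17.7 ± 2.97 FPKM in homozygotes and 4.55 ± 3.14 FPKM in wild types (SD, n = 2 each). The call was lost under 7 of 12 alternatives, over which the adjusted p ran from 0.000283 to 0.316. It was lost without homozygote 26 (0.0930), without homozygote 29 (0.0532), without scaling (0.0699) and with quantile normalization (0.0528), among others.

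No 50-base stretch of Cyp2s1 transcripts occurs in another gene. Of the 4 tested genes within 100 kb other than Cyp2b10, the growth factor gene Tgfb1 was higher in homozygotes. Tgfb1 was at 28.7 and 28.3 FPKM in homozygotes, against 5.604 and 8.21 FPKM in wild types (log2 fold change 1.85, limma adjusted p = 0.00201). Axl, Hnrnpul1 and Ccdc97 lie between it and Cyp2s1 and were not called, with log2 fold changes of -0.12, 0.14 and -0.05. The mast cell markers given above moved in the same direction as Cyp2s1, and their part in it was not tested.

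Cyp2b10 (Entrez 13088, chr7:25897664-25926624, plus strand), which encodes the phenobarbital-inducible enzyme of mouse liver, had the largest fall among the tested P450 genes. It was at 14.6 and 9.95 FPKM in homozygotes, against 51.9 and 64.0 FPKM in wild types. Both homozygotes lay far below both wild types, by much more than mice of a genotype differed. The means were 12.3 ± 3.29 FPKM in homozygotes and 58.0 ± 8.56 FPKM in wild types (SD, n = 2 each), so the level in homozygotes was 4.72-fold lower. On the log2 scale the difference was -2.24 (SE 0.20, limma adjusted p = 0.00305). Over 12 alternatives the adjusted p ran from 0.000218 to 0.116 and missed the threshold only without the filter.

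Cyp2s1 and Cyp2b10 stand next to each other on chromosome 7 and are transcribed away from each other, and their changes were opposite. Their starts lie 80707 bases apart by the outer gene bounds of the GENCODE annotation, which differ slightly from the intervals printed here. The pair opens a cluster of 13 P450 genes in 1.36 Mb that ends at Cyp2t4. In it 3 genes reached 1 FPKM, Cyp2s1, Cyp2b10 and Cyp2f2. The other Cyp2b genes (Cyp2b9, Cyp2b13, Cyp2b19 and Cyp2b23) did not exceed 0.191 FPKM. Of the 50-base stretches of Cyp2b10 transcripts, 8.70% occur in other genes, most of them in Cyp2b13.

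Cyp2f2 (Entrez 13107, chr7:27119955-27133660, plus strand) had the highest level of any P450 gene. It was at 90.0 and 74.9 FPKM in homozygotes, against 101 and 178 FPKM in wild types. Both homozygotes were below both wild types, but the wild types differed widely. The log2 fold change was -0.78 (SE 0.24, limma adjusted p = 0.136) and did not pass the threshold. Over 12 alternatives the adjusted p ran from 0.00330, without wild-type mouse 27, to 0.495, and only that alternative gave a call. For Cyp2f2 the authors' deposited table has a log2 fold of -0.87 (q-value 0.00156).

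Cyp2a5, a coumarin hydroxylase gene of the same cluster, lay under 1 FPKM. It was at 0.0752 and 0.0118 FPKM in homozygotes, against 0.591 and 0.653 FPKM in wild types, with no overlap. For Cyp2a5 the authors' deposited table has a log2 fold of -3.89 (q-value 0.000519), and the limma fit without the filter an adjusted p of 0.0674. Because 37.0% of its 50-base stretches occur in other genes, 28.1% in Cyp2a4, its level is uncertain. Cyp2t4, at the far end, was at 0.667 and 0.308 FPKM in homozygotes, against 0.0630 and 0.422 FPKM in wild types, and overlapped.

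**Figure D4:**
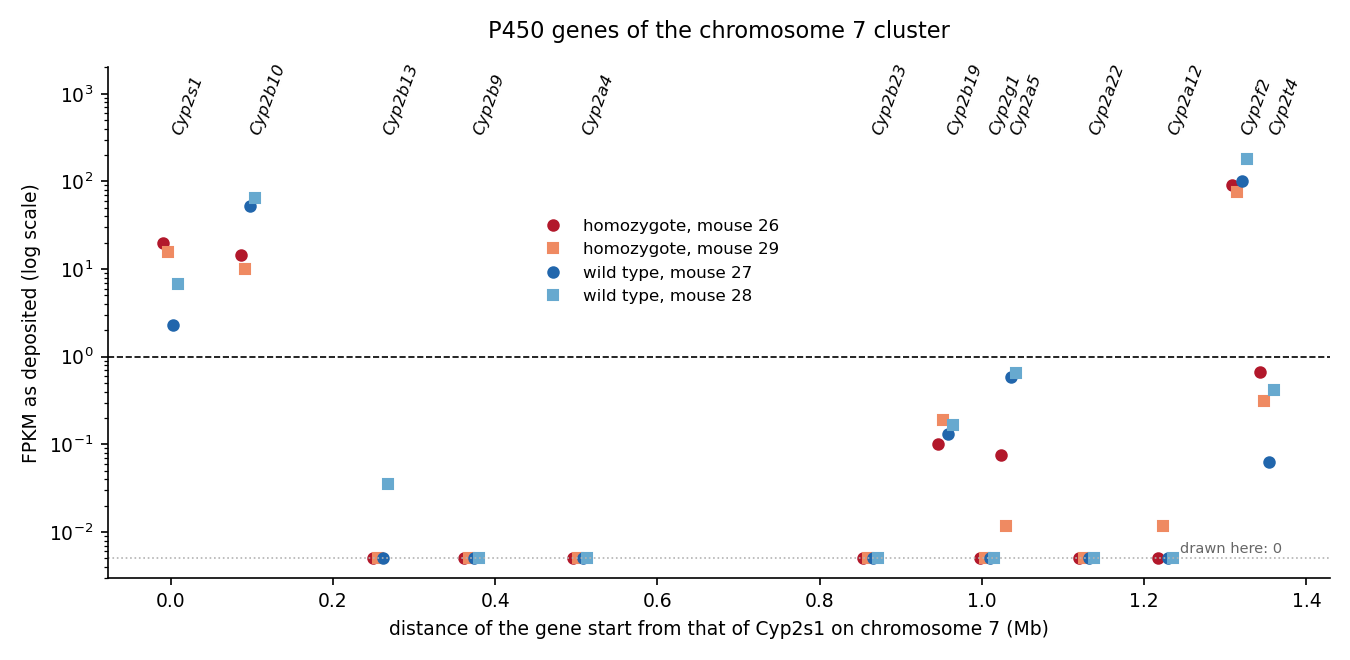
FPKM on a log axis for the 13 P450 genes of the chromosome 7 cluster against the distance of each start from that of Cyp2s1, with 1 point per library, a dashed line at 1 FPKM, and values of 0 drawn at the dotted line. Cyp2s1 is higher and its neighbour Cyp2b10 lower in both homozygotes, Cyp2f2 near the far end has the highest level, and the genes between stay under 1 FPKM.

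Cyp3a57 (Entrez 622127, chr5:145345270-145390512, plus strand) belongs to the CYP3A subfamily, whose liver members oxidise steroids and many drugs. It was at 1.13 and 1.36 FPKM in homozygotes, against 3.82 and 4.36 FPKM in wild types. The genotypes did not overlap, and the level in homozygotes was 3.28-fold lower. On the log2 scale Cyp3a57 differed by -1.23 (SE 0.12, limma adjusted p = 0.00410), with a range of 0.000748 to 0.0854 over 11 alternatives, the highest without the filter. Of its 50-base stretches 8.63% occur in other genes, mainly Cyp3a59. The other 6 Cyp3a genes did not exceed 0.0351 FPKM, and both tested genes within 100 kb were not called.

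Cyp4v3 (Entrez 102294, chr8:45305802-45333196, minus strand) encodes a fatty acid omega-hydroxylase, and its human counterpart CYP4V2 is mutated in Bietti crystalline dystrophy of the retina. It was at 5.39 and 5.45 FPKM in homozygotes, against 10.2 and 12.9 FPKM in wild types. The homozygotes were nearly identical and 2.13-fold below the wild types on average. On the log2 scale Cyp4v3 differed by -1.03 (SE 0.11, limma adjusted p = 0.00632), and the range over 12 alternatives was 0.000594 to 0.0829, again missing the threshold only without the filter. An annotated gene, Gm45753, shares 7.02% of its 50-base stretches. Both tested genes within 100 kb, Fam149a and Tlr3, were not called.

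The lists of other cell types were read beside Cyp2b10, Cyp3a57 and Cyp4v3 too. In all 7 seminal vesicle markers both homozygotes fell under both wild types, and 5 were called. Over all tested genes 25.8% were lower without overlap on scaled FPKM, and 3.0% were called lower. Between the wild types, their sum, given above, was higher in mouse 27, and Cyp2b10, Cyp3a57 and Cyp4v3 were each higher in mouse 28. Between the homozygotes, 6 of the 7 markers, Cyp3a57 and Cyp4v3 were higher in mouse 29, and Cyp2b10 in mouse 26. These orders rest on 1 pair of mice per genotype, and no cause was read from them. Smooth muscle markers summed to 1335 and 1622 FPKM in homozygotes, against 2488 and 1901 FPKM in wild types, and 0 were called. On FPKM as deposited 5 of 6 were lower without overlap, and on scaled FPKM Actg2 was too, beside the same 25.8% of all tested genes. Among 3 red blood cell markers Alas2 was called lower, at 4.09 and 3.79 FPKM in homozygotes, against 7.83 and 6.40 FPKM in wild types (limma adjusted p = 0.0476), and the 3 summed to 294 and 179 FPKM in homozygotes, against 390 and 321 FPKM in wild types. Of 8 fibroblast markers 1, Postn, was called lower, at 5.85 and 5.41 FPKM in homozygotes, against 9.55 and 11.7 FPKM in wild types (adjusted p = 0.0114), and the 8 summed to 348 and 298 FPKM in homozygotes, against 273 and 324 FPKM in wild types. The part of these cells was not tested. Of 7 liver markers none reached the filter, and they summed to 1.52 and 1.36 FPKM in homozygotes, against 0.582 and 1.70 FPKM in wild types.

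Among other foreign-compound genes, Cyp2e1 and Cyp1b1 had both homozygotes below both wild types and did not pass the threshold. Cyp2e1, whose enzyme oxidises ethanol, was at 18.2 and 16.1 FPKM in homozygotes, against 22.6 and 21.1 FPKM in wild types (log2 fold change -0.41, limma adjusted p = 0.163; 0.0373 without wild-type mouse 28 and up to 0.711 over 12 alternatives). Cyp1b1, an AHR-regulated enzyme that hydroxylates oestrogens, was at 2.08 and 2.40 FPKM in homozygotes, against 2.503 and 3.32 FPKM in wild types (log2 fold change -0.32, adjusted p = 0.237). In neither gene did the genotypes overlap.

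The 2 other CYP1 genes were low. Cyp1a1, the classic AHR target, was at 0.261 and 0.371 FPKM in homozygotes, against 0.554 and 1.08 FPKM in wild types. The homozygotes were below the wild types, and 1 wild-type library alone put this gene just over 1 FPKM. For Cyp1a1 the authors' deposited table has a log2 fold of -1.44 (q-value 0.0125). Cyp1a2 was listed at 0 in all 4 libraries. Ahr itself was at 3.27 and 3.96 FPKM in homozygotes, against 2.50 and 3.92 FPKM in wild types, and was not called.

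In the CYP2J subfamily, known for epoxidising arachidonic acid, 3 of 7 genes were expressed. Cyp2j6 was at 14.4 and 12.95 FPKM in homozygotes, against 11.7 and 13.3 FPKM in wild types, an overlap (log2 fold change 0.05, limma adjusted p = 0.863). Cyp2j13 was at 1.54 and 2.83 FPKM in homozygotes, against 3.12 and 5.07 FPKM in wild types. Its values did not overlap, with a log2 fold change of -0.74 (SE 0.24) and an adjusted p of 0.150, or 0.0194 without wild-type mouse 27 and up to 0.655 over 11 alternatives. The authors' deposited table gives Cyp2j13 a q-value of 0.00222. Cyp2j9 was at 1.03 and 0.773 FPKM in homozygotes, against 0.976 and 1.26 FPKM in wild types, around the level of 1 (adjusted p = 0.524).

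Cyp2d22, held to be the mouse counterpart of human CYP2D6, was the only expressed gene of 9 in the CYP2D subfamily. It was at 8.86 and 8.63 FPKM in homozygotes, against 7.76 and 9.54 FPKM in wild types (log2 fold change -0.05, limma adjusted p = 0.864). Cyp2r1, the vitamin D 25-hydroxylase, was at 1.35 and 0.832 FPKM in homozygotes, against 0.886 and 0.966 FPKM in wild types (adjusted p = 0.874). Both genes overlapped between genotypes.

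CYP4 genes other than Cyp4v3 showed no call. Cyp4b1, which activates furan compounds in lung, was at 2.95 and 3.03 FPKM in homozygotes, against 4.63 and 3.64 FPKM in wild types (log2 fold change -0.42, limma adjusted p = 0.222; 0.0200 without wild-type mouse 28 and up to 0.704 over 11 alternatives). Among the CYP4F genes, whose enzymes inactivate leukotriene B4, 4 of 8 were expressed. Cyp4f13 was at 12.3 and 14.1 FPKM in homozygotes, against 12.97 and 13.9 FPKM in wild types (adjusted p = 0.708). Cyp4f16 was at 3.83 and 4.54 FPKM in homozygotes, against 3.95 and 5.05 FPKM in wild types (adjusted p = 0.603), with 17.4% of its 50-base stretches found in other genes. Cyp4f17 was at 3.88 and 4.46 FPKM in homozygotes, against 3.68 and 4.27 FPKM in wild types (adjusted p = 0.988). All 3 overlapped between genotypes, and all 3 were higher in homozygote 29 than in homozygote 26 and in wild-type mouse 28 than in wild-type mouse 27.

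Cyp4f15 differed widely between mice of the same genotype, and the genotypes overlapped. It was at 0.561 and 1.88 FPKM in homozygotes, against 1.40 and 5.19 FPKM in wild types (log2 fold change -0.90, SE 0.47, limma adjusted p = 0.357; 0.0101 without wild-type mouse 27 and up to 0.987 over 11 alternatives). Cyp4f39, whose enzyme makes skin-barrier lipids, followed the same order at 0.00846 and 0.127 FPKM in homozygotes, against 0.0445 and 0.563 FPKM in wild types. In the authors' deposited table the q-values were 0.0002 for Cyp4f15 and 0.0162 for Cyp4f39. Urothelial markers had the same order within genotypes: all 4 were higher in wild-type mouse 28 than in wild-type mouse 27, and 3 of 4 in homozygote 29 than in homozygote 26. Upk2 was at 2.67 and 10.4 FPKM in homozygotes, against 4.25 and 44.2 FPKM in wild types, and Upk3a at 1.33 and 13.3 FPKM in homozygotes, against 1.76 and 53.2 FPKM in wild types. Upk1a, the most abundant, was at 393 and 345 FPKM in homozygotes, against 245 and 458 FPKM in wild types. Upk1b was at 37.5 and 46.5 FPKM in homozygotes, against 36.7 and 83.7 FPKM in wild types. The 4 markers summed to 435 and 416 FPKM in homozygotes, against 288 and 639 FPKM in wild types. Mouse 28 exceeded mouse 27 also in 5 of 6 endothelial, 3 of 3 basal epithelial and 7 of 8 fibroblast markers, but in 0 of 7 adipocyte markers. Homozygote 29 exceeded homozygote 26 in 6, 2, 0 and 0 of these. The part of urothelium in the spread of Cyp4f15 was not tested.

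**Figure D5:**
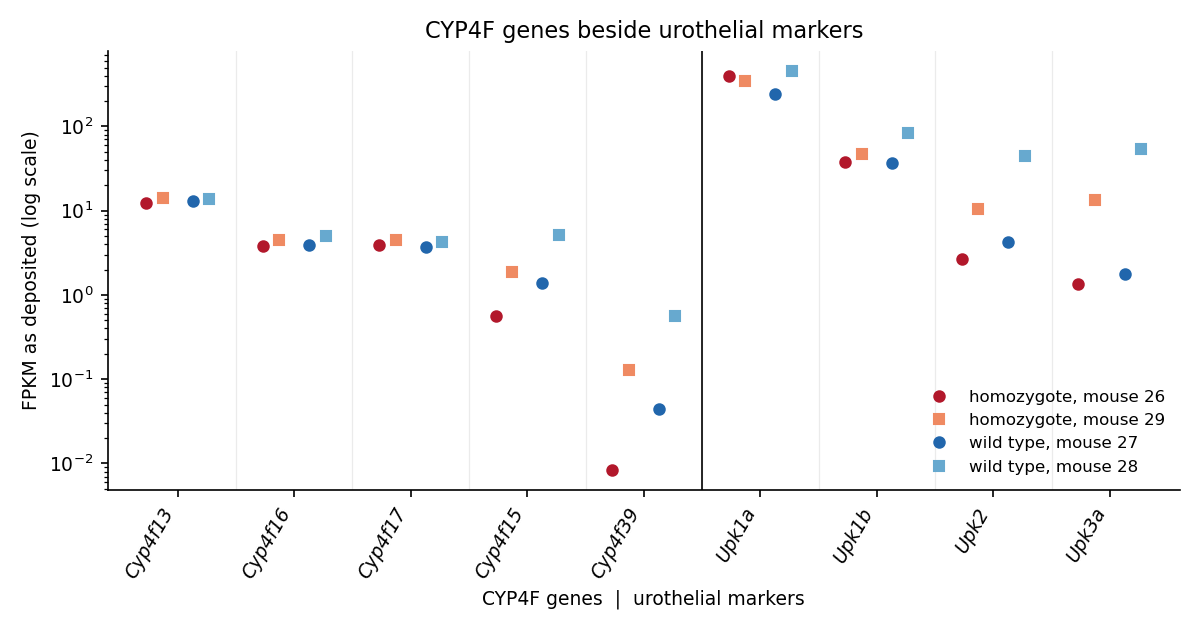
FPKM on a log axis in each library for 5 CYP4F genes and 4 urothelial markers, homozygotes left of wild types. Cyp4f13, Cyp4f16 and Cyp4f17 are level across the 4 libraries, while Cyp4f15 and Cyp4f39 are highest in wild-type mouse 28 and lowest in homozygote 26. Upk2 and Upk3a have the same extremes, and Upk1a and Upk1b are lowest in wild-type mouse 27.

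Sterol and bile acid genes made up most of the remaining expressed members. Cyp27a1, the mitochondrial sterol 27-hydroxylase, was at 5.54 and 5.14 FPKM in homozygotes, against 6.73 and 9.45 FPKM in wild types. Both homozygotes were below both wild types, with a log2 fold change of -0.57 (SE 0.14) and a limma adjusted p of 0.0774, or 0.00675 without wild-type mouse 27 and up to 0.399 over 12 alternatives. Cyp7b1, which hydroxylates oxysterols and, in prostate, an androgen metabolite that binds oestrogen receptor beta, was at 1.26 and 1.29 FPKM in homozygotes, against 1.56 and 1.44 FPKM in wild types (log2 fold change -0.18, adjusted p = 0.506). Cyp39a1, another oxysterol hydroxylase, was at 3.33 and 3.24 FPKM in homozygotes, against 2.93 and 3.44 FPKM in wild types (adjusted p = 0.943).

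Cyp20a1, a P450 with no settled substrate, varied little between the 4 libraries. It was at 25.8 and 26.5 FPKM in homozygotes, against 27.7 and 26.5 FPKM in wild types (log2 fold change -0.13, limma adjusted p = 0.631), a slight overlap. Cyp46a1, the cholesterol hydroxylase of brain, was under 1 FPKM with 0.497 and 0.623 FPKM in homozygotes, against 0.532 and 0.658 FPKM in wild types. The rate-setting bile acid enzyme gene Cyp7a1 and the vitamin D-degrading Cyp24a1 were listed at 0, Cyp8b1 did not exceed 0.0114 FPKM, Cyp27b1, which activates vitamin D, 0.0739 FPKM, and the retinoic acid hydroxylase gene Cyp26c1 0.0312 FPKM.

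The liver-type subfamilies were near silent. Of 15 Cyp2c genes 9 were listed at 0 and the rest did not exceed 0.438 FPKM, the value of Cyp2c70 in homozygote 26. Cyp2c70, which makes the muricholic bile acids of mice, was at 0.438 and 0.290 FPKM in homozygotes, against 0.0448 and 0 FPKM in wild types. In the authors' deposited table Cyp2c70 has a log2 fold of 2.85 (q-value 0.0391). The 4 Cyp4a genes, targets of PPAR alpha in liver and kidney, did not exceed 0.0219 FPKM. Of the CYP2D genes, Cyp2d34 was listed at 0 in both homozygotes, against 0.113 and 0.322 FPKM in wild types, with a q-value of 0.0208 in the authors' deposited table.

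A q-value is given for 32 of the 89 genes in the authors' deposited table, and for 15 it is under 0.05, with 5 higher and 10 lower in homozygotes. Over all 14374 genes with a q-value in the authors' deposited table, 14.2% are under 0.05, 7.04% higher and 7.1% lower in homozygotes. All 5 genes called by limma are among the 15. Of the other 10, Cyp2f2, Cyp2j13 and Cyp4f15 missed the limma threshold and 7 lay under its filter. Near the level of 1 FPKM, the members whose highest library lay closest above it were Cyp1a1 (1.08 FPKM), Cyp11a1 (1.19 FPKM), Cyp2j9 (1.26 FPKM) and Cyp2r1 (1.35 FPKM), and those closest below it were Cyp17a1 with 0.9201 FPKM at most and Cyp2t4 with 0.667 FPKM at most.

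Genes that serve or surround the P450 enzymes were read from 9 lists with 129 names, of which 127 were in the table and 87 were tested. Of those, 7 were higher and 8 lower in homozygotes, with a median log2 fold change of -0.11, where 4.65% of all tested genes were called higher and 3.0% lower. Of the 8 lower genes 6 passed the filter by their wild-type level alone, and of the 7 higher genes 1 by its homozygote level alone, so these counts are a description. Without homozygote 26 the counts were 2 higher and 5 lower, and without homozygote 29 they were 2 higher and 4 lower. They were 9 higher and 19 lower without wild-type mouse 27, and 11 higher and 8 lower without wild-type mouse 28. Among the called genes, Hsd3b7, Rxrg, Ugt2b34, Ugt2b35 and Sult1c2 were called in every fit with 1 library left out in which they were tested. Of these, Rxrg, Ugt2b34, Ugt2b35 and Sult1c2 passed the filter by their wild-type level alone, so the repeated calls are no independent support. Sult1c2 was tested in only 2 of the 4 such fits. Without the filter Sult1c2 alone was called.

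Of 9 tested redox partners, which hand electrons to P450 enzymes, 1 was called. Cyb5r1, of the cytochrome b5 reductase family, was at 35.8 and 34.2 FPKM in homozygotes, against 20.5 and 19.8 FPKM in wild types (log2 fold change 0.69, limma adjusted p = 0.0270), and lost the call without homozygote 26 (0.221) and without homozygote 29 (0.133). The most abundant in each library, the haem-binding P450 partner Pgrmc1, was at 224 and 212 FPKM in homozygotes, against 229 and 223 FPKM in wild types. None of 12 haem synthesis and breakdown genes was called, and the highest of them in each library, Alad, lay between 79.6 and 84.3 FPKM. Ptgis and Cyp51, P450 genes whose names fall outside the pattern, were both tested and not called (adjusted p = 0.784 and 0.130).

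Of 16 tested receptors known to regulate P450 genes, Ppard was higher and Rxrg and Esr2 were lower. Rxrg, a retinoid X receptor, was at 0.750 and 0.634 FPKM in homozygotes, against 4.03 and 3.79 FPKM in wild types (log2 fold change -1.58, limma adjusted p = 0.00263). Esr2, oestrogen receptor beta, was at 0.792 and 0.998 FPKM in homozygotes, against 1.83 and 2.22 FPKM in wild types (adjusted p = 0.0296). Both passed the filter by their wild-type level alone. Ppard was at 16.4 and 17.0 FPKM in homozygotes, against 7.41 and 10.7 FPKM in wild types (adjusted p = 0.0322). The calls of Ppard and Esr2 were lost without homozygote 26 (0.165 and 0.220) and without homozygote 29 (0.158 and 0.117). Nr1i3, the receptor known to induce Cyp2b10 in liver, and Nr5a1, the factor that drives steroid P450 genes in adrenal and gonad, were listed at 0 in all libraries. The highest of the list in each library, Nr1h2, a receptor for oxysterols, was at 25.8 and 27.2 FPKM in homozygotes, against 24.5 and 30.1 FPKM in wild types. None of 4 tested AHR targets outside the P450 genes was called, the highest by mean being Tiparp with 9.999 and 7.75 FPKM in homozygotes, against 10.5 and 9.16 FPKM in wild types.

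Among 12 tested steroid-handling enzymes and carriers, 2 were higher. Hsd3b7, a bile acid synthesis dehydrogenase that acts on the products of Cyp7b1, was at 46.2 and 41.0 FPKM in homozygotes, against 15.3 and 16.4 FPKM in wild types (log2 fold change 1.33, SE 0.12, limma adjusted p = 0.00321). Stard3, which moves cholesterol between membranes, was at 35.6 and 35.9 FPKM in homozygotes, against 23.2 and 24.8 FPKM in wild types (adjusted p = 0.0479; 0.443 without homozygote 26 and 0.322 without homozygote 29). Hsd3b1, Hsd3b2, Hsd17b3, Akr1c6 and Akr1c21 were listed at 0 in all libraries. Hsd17b10 had the highest mean of the list, with 77.0 and 69.1 FPKM in homozygotes, against 72.3 and 68.6 FPKM in wild types.

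Of 18 tested eicosanoid genes, Alox5 was higher and Pla2g4a and Alox15 were lower. Alox5, which begins leukotriene synthesis and whose products the CYP4F enzymes clear, was at 2.66 and 2.25 FPKM in homozygotes, against 0.811 and 0.563 FPKM in wild types (adjusted p = 0.0211 with limma), and passed the filter by its homozygote level alone. Alox15 was at 0.959 and 0.778 FPKM in homozygotes, against 2.22 and 3.52 FPKM in wild types (adjusted p = 0.0202), and passed by its wild-type level alone. Pla2g4a, which frees arachidonic acid, was at 6.06 and 7.04 FPKM in homozygotes, against 11.1 and 10.6 FPKM in wild types (adjusted p = 0.0289). The calls of all 3 were lost without homozygote 29 (adjusted p = 0.0516 for Alox5, 0.0865 for Alox15 and 0.120 for Pla2g4a), and those of Alox5 and Pla2g4a without homozygote 26 (0.104 and 0.230). Highest by its mean over the 4 libraries, the prostaglandin-degrading Hpgd was at 169 and 126 FPKM in homozygotes, against 141 and 128 FPKM in wild types.

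Among 11 tested conjugating enzymes, which attach glucuronic acid or sulfate to P450 products, 4 were lower and 1 was higher. Ugt2b34 was at 0.360 and 0.227 FPKM in homozygotes, against 4.42 and 8.24 FPKM in wild types (log2 fold change -2.49, SE 0.23, limma adjusted p = 0.00350). Ugt2b35 was at 0.602 and 0.512 FPKM in homozygotes, against 4.14 and 4.84 FPKM in wild types (adjusted p = 0.00109), and Sult1c2 at 0.177 and 0.187 FPKM in homozygotes, against 2.39 and 2.45 FPKM in wild types (adjusted p = 0.00209). These 3 passed the filter by their wild-type level alone. Sult1a1 was at 4.92 and 5.11 FPKM in homozygotes, against 7.69 and 8.25 FPKM in wild types (adjusted p = 0.0223). Sult5a1 was at 21.4 and 26.1 FPKM in homozygotes, against 12.3 and 12.8 FPKM in wild types (adjusted p = 0.0198). Both calls were lost without homozygote 26 (0.217 and 0.0632) and without homozygote 29 (0.185 and 0.155).

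Among the flavin monooxygenases, which oxidise many of the same compounds as P450 enzymes, Fmo2 had the highest mean over the 4 libraries. It was at 38.6 and 41.9 FPKM in homozygotes, against 24.6 and 29.3 FPKM in wild types (limma adjusted p = 0.0510), and did not pass the threshold although the genotypes did not overlap.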

How the data were processed

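RNA of 4 FVB mice was sequenced, per the labels' protocols after RNeasy Plus extraction and standard Illumina library preparation. The authors deposited 1 table with an FPKM value per gene and library. The unit was read from the values and from the named tool, as the headers give none. Per the file headers, the same table has the authors' fold change with its p-value and q-value for each gene, and its size against the group means shows a log2 fold. TopHat 1.3, Cufflinks 1.3 and build mm10 are named in the submitters' processing notes. What each tool did, the gene models and strand settings were not given in the sources used here.

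Cells of 99999, present in 7 rows and far above the next highest of 35610.7, were treated as missing. No P450 gene was among the 32 rows with a missing or coded value. FPKM was divided by median-of-ratios factors over genes at 1 FPKM or more in every library (1.01 and 1.04 for homozygotes 26 and 29, 0.921 and 1.03 for wild types 27 and 28). Rows averaging 1 scaled FPKM or more were fitted as log2(scaled FPKM + 1) with limma 3.58.1 in R 4.3.3 (trend, two-sided, Benjamini-Hochberg over all 11762 tested genes, threshold 0.05, prior df 3.62, residual df 2). On this scale the pseudocount shrinks the fold changes of low genes. An exact permutation test of 2 against 2 cannot give a two-sided p under 0.333 and was not used. The fit was tested on simulated data. Count tests were not run, since FPKM values are not counts.

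Starts in the table were raised by 1 to be 1-based. Promoter windows came from RefSeq, and sharing of 50-base stretches from GENCODE transcripts on the same build. The alternatives changed the scaling (none, or quantile normalization), the pseudocount (0.1), the filter (none, or a mean of 5), the variance trend (none, or robust), the libraries (each omitted in turn) and the rows (those overlapping another row omitted), or used the authors' deposited call. The numbers of alternatives and the ranges of adjusted p given for single P450 genes leave out the authors' deposited call. A genotype reduced to 1 library is assumed to vary like the other genotype. The genes named are all P450 genes at 1 FPKM or more in any library, all called genes of the other lists and the highest tested gene of each list. Other named genes were chosen after their values were seen. The P450 set, the lists and the tests were chosen with earlier results of these data known. A called gene of the lists and a tissue marker are not reported here.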

Additional observations from a re-analysis of the deposited data

How the results depend on the processing

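Of the 5 called P450 genes, Cyp21a1, Cyp2b10, Cyp3a57 and Cyp4v3 kept their call under each alternative in which they were tested except the one without a filter. P450 genes called higher were 2, and 1 with unscaled FPKM, quantile normalization, a pseudocount of 0.1, a robust trend or no filter, 5 by the authors' deposited call, and 1 to 2 with a library left out. P450 genes called lower were 3, and 0 without a filter, 10 by the authors' deposited call, and 3 to 7 with a library left out. All genes called were 900, and 126 without a filter, 2034 by the authors' deposited call, and 354 to 2027 with a library left out. Without scaling 73.0% of calls were rises, without wild-type mouse 27 49.1% and by the authors' deposited call 49.8%, against 60.8%. Partner genes called higher were 7, and 0 without a filter and 2 to 11 with a library left out. Those called lower were 8, and 4 with unscaled FPKM, 1 without a filter, 2 at a minimum mean of 5, 16 by the authors' deposited call, and 4 to 19 with a library left out. The cause of these shifts was not tested.

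The counts of genes at 1 FPKM or more stayed within 16 to 24 in homozygotes and 18 to 25 in wild types. The log2 fold change turned sign in 4 uncalled genes near 0. Unscaled FPKM gave 0.0197 for Cyp2d22, 0.0565 for Cyp4f17 and 0.0358 for Cyp39a1, quantile normalization gave 0.0217 for Cyp4f17 and 0.0261 for Cyp39a1, and the authors' deposited table has 0.0553 for Cyp4f17. With a library left out, the values ran between -0.0401 and 0.147 for Cyp2j6, -0.112 and 0.0133 for Cyp2d22, -0.0668 and 0.0585 for Cyp4f17, and -0.0541 and 0.0113 for Cyp39a1. No paired analysis was possible because the mouse numbers are not shared between genotypes.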
